A study of Mus musculus with 2 samples.

Results

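In mouse epiblast-like cells at 48 h (48h-EpiLCs), 470 of 9400 kept cells (5%) carried the most transcripts of 5 genes of the integrated stress response. A cell was kept if 1000 or more genes were detected and mitochondrial transcripts took no more than 10% of its unique molecular identifiers (UMIs, counted transcript molecules). The cells were chosen by their summed UMIs of Chac1, Trib3, Nupr1, Pck2 and Gpt2 per 10000 UMIs of the cell, and the highest 5% are called high-score cells here. They were compared with the 3337 cells in which none of these 5 genes had a UMI (score 0), and the 5593 cells between are called intermediate.

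The study profiled wild-type (WT) and Cnot8 knockout (KO) cells of ICR mice by droplet-based 3′ single-cell RNA sequencing, with 1 library of embryonic stem cells (ESCs) in serum and LIF on feeder fibroblasts and 1 library of 48h-EpiLCs. The WT cells carried the ROSAmT/mG allele, which expresses the fluorescent protein tdTomato, the KO cells carried CRISPR/Cas9 mutations of exon 2 of Cnot8, a deadenylase of the Ccr4-Not complex, and equal numbers of both were mixed before each library was made. The 48h-EpiLCs had been grown on Matrigel in N2B27 medium with activin A, bFGF and KSR, a serum replacement. As each stage was 1 library and cells are not replicates, no test was possible, and the 95% intervals given here cover counting error only.

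The integrated stress response is a pathway in which kinases that sense missing amino acids, misfolded proteins, heme shortage or viral RNA phosphorylate the translation factor eIF2α. Translation falls in general while that of Atf4 mRNA rises, and Atf4, often paired with C/EBP proteins, turns on genes for making, importing and loading amino acids onto tRNA. Of the 5 genes of the score, Chac1 encodes a glutathione-degrading enzyme, Trib3 a pseudokinase that restrains Atf4 and Akt, Nupr1 a small stress-induced chromatin protein, Pck2 the mitochondrial phosphoenolpyruvate carboxykinase and Gpt2 the mitochondrial alanine transaminase. In GENCODE M21 (GRCm38) Chac1 lies at chr2:119351229-119354381, Trib3 at chr2:152337422-152344032, Nupr1 at chr7:126623249-126630861, Pck2 at chr14:55540266-55551242 and Gpt2 at chr8:85492576-85527560.

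Atf4 and C/EBP proteins bind composite elements whose core can be written TGATGNAA. In windows from 250 bases before to 50 after RefSeq start sites (GRCm38.p6), this core was searched on both strands, where the other strand reads TTNCATCA. It stood in 4 of the 5 score genes, in all but Gpt2, against 1219 of 27025 genes with a window (4.51%) and 139 of 6087 genes with a window that reached 10 counts per 1000000 UMIs (CPM) in the 48h-EpiLCs (2.28%). Of 13 cytoplasmic aminoacyl-tRNA synthetase genes with a window, 5 held it (Aars, Gars, Iars, Tars and Yars), and of the 60 genes with a window that were at least 1.5-fold higher in high-score cells, 10 did (16.7%). The core stood in 4 of 19 stress regulators, 3 of 14 amino acid synthesis genes and 2 of 11 amino acid transporters with a window. Of the 15 highest genes named below, 12 had a window and 2 held it. The windows of Atf4, Ddit3, Ddit4, Cebpb, Sesn2, Psat1, Psph, Mthfd2 and Sars held none. A match is a description of these letters only. The stretches below show the core in the 4 score genes and in Asns, Slc7a11 and Gars, whose values follow. They are written 5′ to 3′ on the gene's strand with the core in capitals, and only 30 bases are given where a longer stretch would reach an exon annotated in GENCODE M21 or where the core lies after the start.
Chac1, chr2:119350992-119351116, plus strand, outside annotated genes, core 193 bases before the start: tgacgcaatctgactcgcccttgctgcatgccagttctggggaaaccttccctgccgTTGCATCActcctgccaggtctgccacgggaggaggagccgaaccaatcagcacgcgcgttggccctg
Pck2, chr14:55540103-55540230, plus strand, inside Gm10876 but in none of its exons, core 103 bases before the start: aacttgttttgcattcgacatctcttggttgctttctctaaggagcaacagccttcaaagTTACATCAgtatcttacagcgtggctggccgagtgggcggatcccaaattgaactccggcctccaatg
Nupr1, chr7:126625562-126625591, minus strand, in an annotated Nupr1 exon, core 110 bases before the start: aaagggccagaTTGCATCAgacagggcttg
Trib3, chr2:152344028-152344057, minus strand, overlapping an annotated Trib3 exon, core 14 bases after the start: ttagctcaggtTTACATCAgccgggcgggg
Asns, chr6:7693214-7693243, minus strand, in an annotated Asns exon, core 23 bases before the start: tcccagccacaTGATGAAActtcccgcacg
Slc7a11, chr3:50443651-50443680, minus strand, outside annotated genes, 2 cores 66 and 47 bases before the start: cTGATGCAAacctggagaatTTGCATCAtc
Gars, chr6:55037911-55038000, plus strand, outside annotated genes, core 30 bases before the start: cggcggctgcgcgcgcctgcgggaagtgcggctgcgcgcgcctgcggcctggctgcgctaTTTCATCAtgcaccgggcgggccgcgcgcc

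The score had no gap at the line between members and the rest. The last cell inside had a score of 3.597 (5 UMIs of the score genes among 13899) and the first outside 3.592 (5 among 13920), the median over the high-score cells was 4.92 and the highest score was 18.9 (22 among 11622). The intermediate cells had a median score of 0.948. High-score cells held a median of 14651.5 UMIs, score-0 cells 13773 and intermediate cells 16445. Of the high-score cells, 107 had a UMI of all 5 score genes, 146 of 4, 137 of 3, 60 of 2 and 20 of only 1. These 20 cells had a median of 2308 UMIs and a median of 1 UMI of the score genes, so that a single molecule placed them among the members.

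The following levels of the score genes chose the cells and are a description. Nupr1 contributed most, with 35.8% of the score genes' UMIs in high-score cells, and reached 200.2 CPM (190.0 to 210.7) there, against 32.1 CPM in intermediate cells. Trib3 stood at 104.7 against 20.7 CPM, Chac1 at 103.1 against 12.6, Pck2 at 86.6 against 21.8 and Gpt2 at 64.5 against 27.6 CPM. Chac1 thus had the steepest step between intermediate and high-score cells and Gpt2 the flattest. One gene led in most of the cells: Nupr1 in 199, Chac1 in 71, Trib3 in 50, Pck2 in 34 and Gpt2 in 23, with a tie in 93.

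Each score gene was then read in cells chosen on the other 4 alone. Chac1 stood at 62.4 CPM in the highest 5% by the other genes and at 4.8 CPM in the cells without a UMI of them, 13.0-fold apart (11.1 to 15.3). The ratio was 7.83-fold (7.14 to 8.58) for Nupr1, 6.81-fold (6.08 to 7.64) for Trib3, 5.49-fold (4.86 to 6.20) for Pck2 and 2.62-fold (2.31 to 2.97) for Gpt2. When the UMIs of each cell were split at random into 2 parts, with cells chosen on one and read on the other, the 5 genes together stood at 410.2 against 61.7 CPM, a ratio of 6.65 (6.22 to 7.10). Of the cells chosen on one part, 80.0% had a UMI of a score gene in the other part, against 35% of the cells without one. The 5 genes were thus also higher in molecules that had not been used to choose the cells. Both readings rest on the score genes themselves and say nothing about other genes of the pathway.

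Genes outside the score were used to check the label, and they too were chosen with earlier results of these data known. The summed UMIs of Asns, Ddit3, Sesn2, Slc7a11, Psat1, Phgdh, Aars and Sars, 8 known targets of the same pathway, were counted after each cell had been thinned to 5000 UMIs, which left out 30 high-score and 146 score-0 cells of lower depth. The lower quartile, median and upper quartile were 4, 6 and 8 UMIs in the high-score cells and 2, 3 and 4 in the score-0 cells. Of the high-score cells, 85.5% (376 of 440) lay above the score-0 median, against 39.6% of the score-0 cells themselves, and 12.2% of the score-0 cells reached the high-score median. The medians of high-score and score-0 cells were 6 and 4 UMIs in cells annotated as WT by expression, and 5 and 3 in those annotated as KO. The check genes were thus higher in most high-score cells, while the distributions overlapped and formed no separate population.

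**Figure D1:**
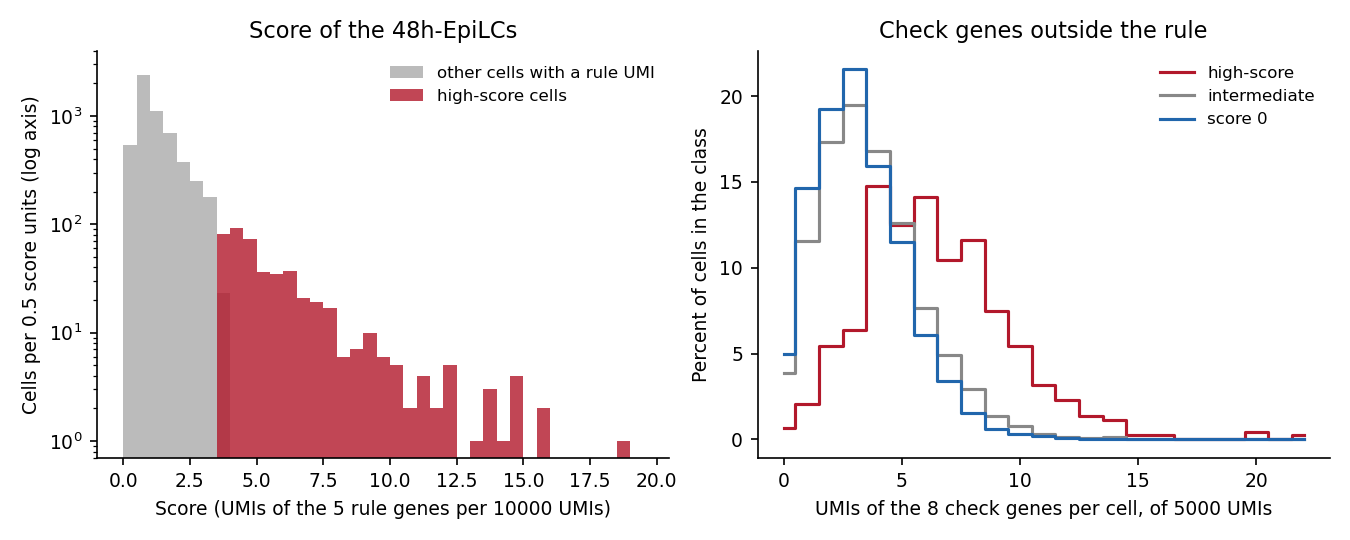
Left, number of 48h-EpiLCs per 0.5 score units (log axis), with high-score cells in red and other cells with a UMI of a score gene in grey. Right, percent of cells of each class by the UMIs of 8 check genes in 5000 UMIs of the cell. The score falls off without a gap, and the high-score cells have a median of 6 check-gene UMIs against 3 in score-0 cells, with overlap.

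Across 7578 genes of at least 10 CPM other than the score genes, 72 (0.95%) were at least 1.5-fold higher in high-score cells on the scale of CPM + 1 and 21 (0.277%) at least 1.5-fold lower. The median log2 ratio over all these genes was -0.036. Of the 72 higher genes, 23 belonged to the 4 lists of stress regulators, amino acid synthesis, amino acid transport and cytoplasmic tRNA synthetases. Another 9 belonged to the lists of hypoxia response and glycolysis.

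Regulators of the response formed the first group. Of 21 listed, 14 reached 10 CPM, 6 of these were at least 1.5-fold higher and none lower, and their median log2 ratio was 0.56. That median depended on the processing, at 0.23 when cells were chosen on one part of the UMIs and read on the other, 0.34 after thinning before scoring and 1.17 without the filter at 10 CPM. Atf4, the central transcription factor, stood at 373 CPM in high-score cells and 154 in score-0 cells, a 2.43-fold difference (2.32 to 2.54). Its partner Cebpb was 2.31-fold higher (49.2 against 21.3 CPM), and Atf5, a related factor, 2.93-fold higher (34.3 against 11.7 CPM). Ddit4, an inhibitor of the growth kinase mTORC1, stood at 168 against 54.9 CPM, which was 3.07-fold higher (2.86 to 3.28). Stc2, a secreted glycoprotein, was 3.56-fold higher (26.7 against 7.49 CPM), and Sesn2, a leucine sensor upstream of mTORC1, was 1.57-fold higher (45.9 against 29.2 CPM). The translation repressor Eif4ebp1 was the most abundant of the list, at 810 against 555 CPM, and its ratio of 1.46 (1.42 to 1.5) lay just under the threshold.

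Low-abundance regulators had larger ratios still. Ddit3 (CHOP), a factor of sustained stress, stood at 30.3 against 5.19 CPM, 5.83-fold higher (4.84 to 7.02), and Atf3 at 11.6 against 1.49 CPM, 7.81-fold higher (5.62 to 10.9). The stress hormone genes Gdf15 (20.9 against 4.15 CPM) and Fgf21 (4.97 against 0.293 CPM) were 5.03-fold (4.04 to 6.25) and 17.0-fold (8.93 to 34.1) higher. The genes of the 4 eIF2α kinases showed no such step: Eif2ak1 stood at 0.947-fold, Eif2ak2 at 0.826-fold, Eif2ak3 at 0.982-fold and Eif2ak4, the sensor of uncharged tRNA, at 1.12-fold (0.897 to 1.38), each with an interval that included 1. Ppp1r15a, whose product reverses the phosphorylation of eIF2α, stood at 36.2 against 29.5 CPM (1.23-fold, 1.07 to 1.40).

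With both lines together, amino acid synthesis held the highest list median among the 4, 0.59 on the log2 scale. Of its 16 genes over 10 CPM, 8 were at least 1.5-fold higher and none lower. Within each line the regulators' median was the higher, at 0.54 against 0.51 in WT-annotated and 0.62 against 0.59 in KO-annotated cells. Asns, asparagine synthetase, stood at 209 CPM in high-score cells, 89.7 in intermediate and 73.7 in score-0 cells, which was 2.83-fold (2.66 to 3.01) between the outer classes. The serine pathway was higher at every step from 3-phosphoglycerate: Phgdh 1.54-fold (256 against 166 CPM), Psat1 2.38-fold (230 against 96.8 CPM) and Psph 2.40-fold (174 against 72.4 CPM). The mitochondrial one-carbon enzymes followed, with Shmt2 at 1.74-fold (1.60 to 1.89) and Mthfd2 at 2.31-fold (2.19 to 2.44), while the cytosolic Shmt1 stood at 0.988-fold (0.889 to 1.10). In proline synthesis, Aldh18a1 was 2.48-fold (25.7 against 10.4 CPM) and Pycr1 2.98-fold (23.9 against 8.02 CPM) higher. Glutamine synthetase Glul did not move with these genes, at 51.1 against 64.0 CPM (0.798-fold, 0.715 to 0.889).

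Among amino acid transporters, 9 of 15 reached 10 CPM, with a median log2 ratio of 0.40 (0.22 after thinning before scoring), and 3 were at least 1.5-fold higher. Slc7a1, a carrier of arginine and lysine, was at 37.4 against 11.2 CPM (3.34-fold, 2.87 to 3.87), whereas its relative Slc7a3 differed little, at 117 against 103 CPM. Slc1a4, for serine and alanine, was 2.07-fold higher and Slc7a5, for large neutral amino acids, 1.61-fold higher. Slc3a2, the heavy chain that Slc7a5 and Slc7a11 share, stood at 299 against 212 CPM (1.41-fold, 1.35 to 1.48). The cystine importer Slc7a11 was rare, at 10.4 against 2.91 CPM (3.56-fold, 2.65 to 4.75). The abundant carrier Slc38a2, a known Atf4 target, was at 468 against 445 CPM, a ratio of 1.05 (1.01 to 1.09).

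Of the cytoplasmic tRNA synthetase list, which also holds the tRNA exporter Xpot, all 21 genes passed 10 CPM, 6 were at least 1.5-fold higher and none lower, with a median log2 ratio of 0.37. Cars, for cysteine, was 2.20-fold higher (101 against 45.8 CPM), Nars 1.83-fold (368 against 201 CPM), Sars 1.82-fold (308 against 169 CPM), Aars 1.65-fold, Gars 1.58-fold and Lars 1.57-fold. In all, 17 of the 21 had a log2 ratio above 0, so that further genes were higher by less than 1.5-fold. Some synthetases stayed level, among them Dars at 0.998-fold (97.0 against 97.2 CPM), Hars at 1.01-fold, Kars at 1.02-fold, Farsa at 0.962-fold, Qars at 0.971-fold and Rars at 0.978-fold. Their intervals all included 1. Within this family the high-score cells thus differed in a part of the enzymes only, and the mitochondrial synthetases, which charge tRNA in the organelle, had a median of 0.082 with none of 12 genes past 1.5-fold.

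**Figure D2:**
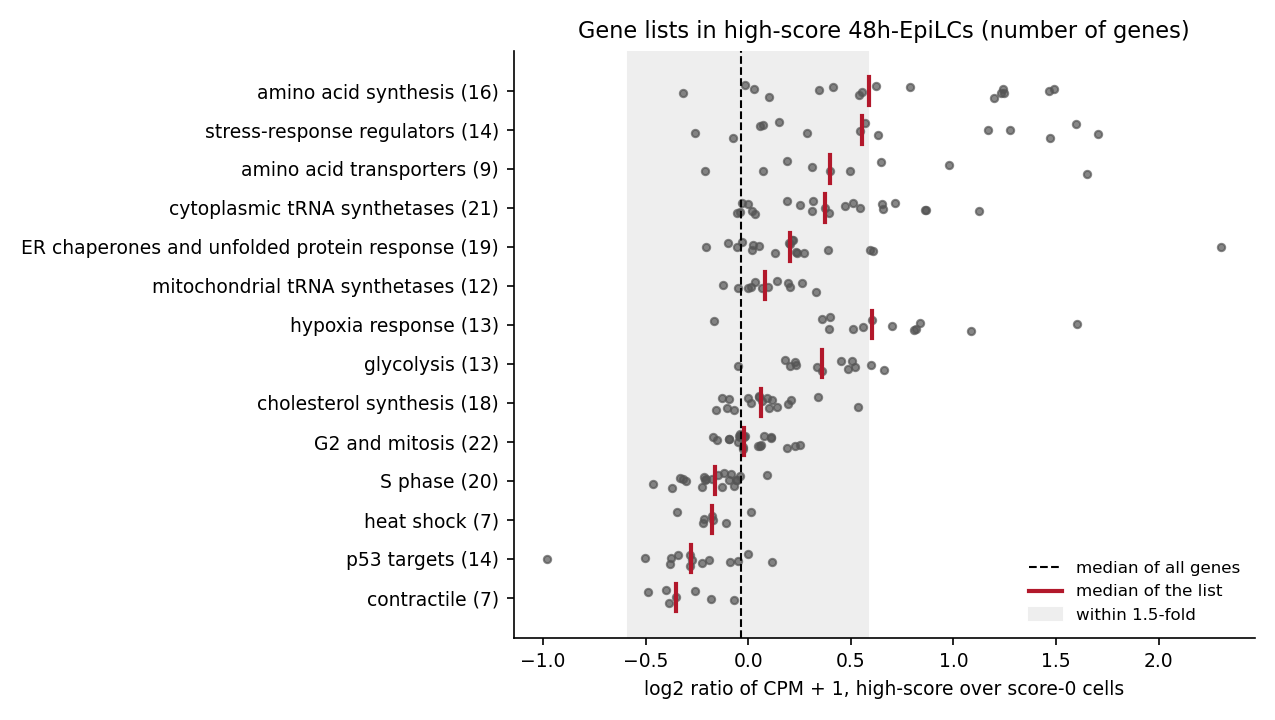
Each dot is a gene of at least 10 CPM, placed by its log2 ratio of CPM + 1 between high-score and score-0 cells, with the number of genes of each list in brackets. Red bars are list medians, the dashed line is the median of all 7578 genes (-0.036) and the grey band spans ratios within 1.5-fold. The 4 amino acid lists lie to the right of the dashed line at medians of 0.37 to 0.59, hypoxia response at 0.60, and p53 targets and contractile genes to the left.

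The endoplasmic reticulum (ER) list moved less, with a median of 0.21 (0.097 within WT-annotated and 0.30 within KO-annotated cells, lines that shared the library) and 3 of 19 genes at least 1.5-fold higher. Herpud1, a component of ER-associated degradation, stood at 61.3 against 11.6 CPM (5.28-fold, 4.65 to 5.99), which was the largest ratio among all listed genes over 10 CPM. Xbp1, the transcription factor of the unfolded protein response, was 1.55-fold and Sdf2l1, a chaperone cofactor named after its value was seen, 1.52-fold higher. The 2 lowest members were Hspa13 at 0.86-fold and Canx at 0.934-fold. The mitochondrial stress list had a median of 0.050 with no gene past 1.5-fold. Its protease Lonp1 was at 88.0 against 64.4 CPM and its chaperone Hspd1 at 1557 against 1775 CPM. Heat shock genes (median -0.18), Nrf2 targets (median -0.072) and autophagy genes (median -0.014) had none past 1.5-fold in either direction. Within WT- and KO-annotated cells the medians were -0.044 and -0.058 for heat shock genes and -0.079 and 0.019 for Nrf2 targets. For autophagy genes they were 0.034 and 0.14.

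By the rule for named genes, which took the 15 highest ratios among genes over 20 CPM that went the same way in both lines, 9 of the 15 were members of the 4 amino acid lists: Ddit4, Asns, Atf4, Psph, Psat1, Mthfd2, Cebpb, Cars and Nars. Ero1l, an ER oxidase that hypoxia also induces, was 2.15-fold higher (73.2 against 34.0 CPM). Ier3, an early stress-response gene, was 2.45-fold higher (134 against 54.6 CPM). Its ratio was smaller within each line, at 2.09-fold (1.91 to 2.29) in WT-annotated and 1.28-fold (0.982 to 1.65) in KO-annotated cells. Arl14ep was 2.22-fold higher (43.1 against 19.4 CPM) and Cryzl1 2.14-fold (47.5 against 22.2 CPM). Phf10, a subunit of chromatin remodelling complexes (1.96-fold), and Anxa2, a membrane-binding protein (1.87-fold), completed the 15. Anxa2 stood at 3.06-fold (2.51 to 3.71) in WT-annotated and 1.20-fold (0.914 to 1.55) in KO-annotated cells. For Ier3 and Anxa2 the interval in KO-annotated cells thus included 1.

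Among the lower genes, Platr31, a noncoding transcript, stood at 8.15 against 30.5 CPM (0.268-fold, 0.203 to 0.347), and in the split of UMIs into 2 parts its ratio turned, to 0.47 on the log2 scale. Calcoco2 (0.614-fold, 13.3 against 21.6 CPM), Hif1an, an oxygen-dependent inhibitor of Hif1a (0.636-fold), Rhox6, B3gnt7, Etv1, Sdc4, Pdgfa, Arhgap32 and Nefh made up the lowest 10, the last at 0.681-fold. Within the lines several of these ratios lay closer to 1. Rhox6 stood at 0.872-fold (0.588 to 1.26) in WT-annotated and 0.943-fold (0.756 to 1.17) in KO-annotated cells, and the intervals of Pdgfa also included 1 in both. The interval included 1 in WT-annotated cells for Hif1an, Sdc4 and Arhgap32, and in KO-annotated cells for Platr31 and Calcoco2. Only 3 of the 21 lower genes were also past 1.5-fold in both lines, namely Lpgat1, Ccno and Eda2r, which were named after their values were seen.

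The p53 targets had a median of -0.28 with 1 of 14 past 1.5-fold, and medians of -0.16 within WT-annotated and -0.14 within KO-annotated cells. Mdm2, the ubiquitin ligase that p53 induces, stood at 108 against 154 CPM (0.704-fold, 0.654 to 0.758), Eda2r, a death-domain receptor, at 6.08 against 13.0 CPM, while Bax was equal at 528 against 527 CPM. Contractile genes had a median of -0.35 with none of 7 past 1.5-fold, led by Cald1 at 74.0 against 104 CPM (0.711-fold), but the list median was -0.29 within WT-annotated and -0.042 within KO-annotated cells. S phase genes had a median of -0.16, with Ccne2 at 15.1 against 21.2 CPM, and genes of G2 and mitosis a median of -0.023. Within WT- and KO-annotated cells these medians were -0.11 and -0.097 for S phase and 0.11 and 0.024 for G2 and mitosis. Formative genes had a median of 0.022, which joined opposite values of 0.22 within WT-annotated and -0.26 within KO-annotated cells. Core pluripotency genes had a median of -0.065, with -0.0097 and -0.20 within the lines. Fgf5, a formative marker, was at 36.2 against 48.1 CPM (0.753-fold, 0.66 to 0.856).

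The lists did not rise evenly along the score. When the intermediate cells were cut into 3 groups by score, the 1865 lowest had 74.8 CPM of Asns, the 1864 in the middle 81.1 and the 1864 highest 116, against 73.7 CPM in score-0 cells. The 235 lower-scoring high-score cells had 176 CPM and the 235 upper ones 245 CPM (229 to 262). Atf4 followed the same order, at 155, 166, 216, 336 and 415 CPM, and Ddit3 at 4.97, 6.31, 8.84, 23.8 and 37.6 CPM. The summed level of the amino acid synthesis list was 1.04, 1.06, 1.24, 1.54 and 1.89 times that of score-0 cells through the same groups, and that of the cytoplasmic synthetases 1.01, 1.03, 1.11, 1.28 and 1.47 times. Most of the range thus lay within the upper part of the score. Cells with few UMIs of the score genes differed little from cells with none. Median depth along the same groups was 18176, 15542, 14861.5, 15499 and 14017 UMIs.

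**Figure D3:**
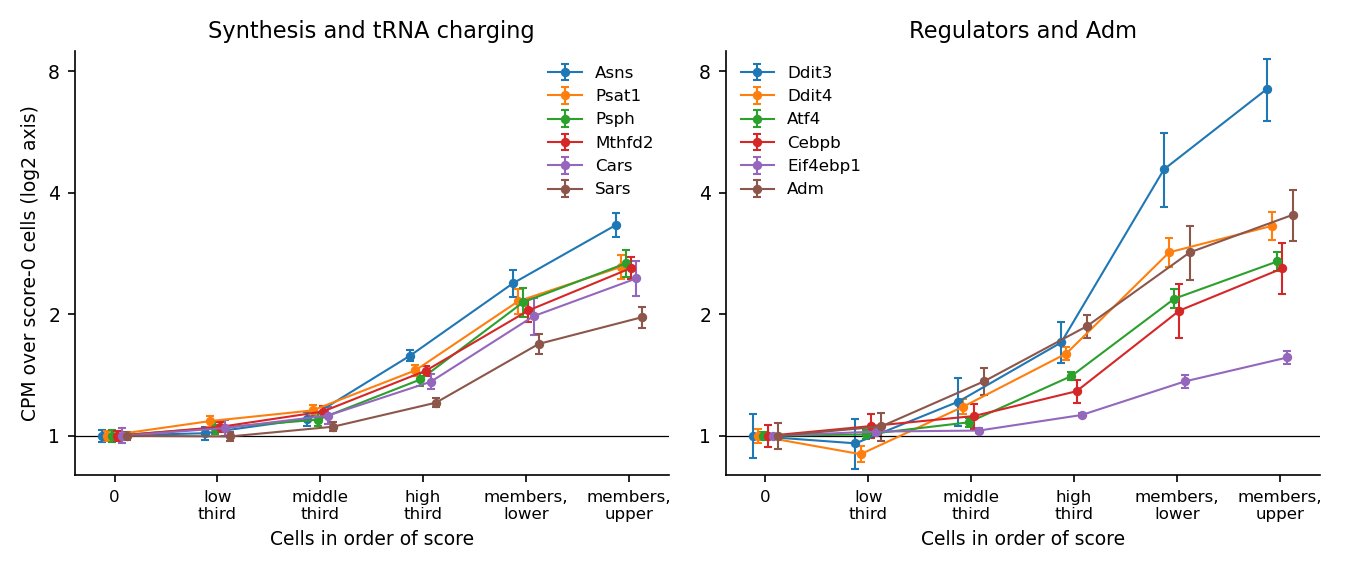
CPM relative to score-0 cells (log2 axis, bars are exact 95% Poisson intervals) in score-0 cells, the 3 groups of intermediate cells and the 2 groups of high-score cells, in order of score. All 12 genes are highest in the uppermost members, with Ddit3 at 7.23 times the score-0 level, and at most 1.09 times that level in the lowest intermediate group.

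The same genes were compared between high-score cells led by different score genes. Asns ranged from 170 CPM in the 71 cells led by Chac1 to 238 CPM in the 199 led by Nupr1, and Atf4 from 350 CPM (Trib3 leading) to 412 CPM (Chac1 leading). Median log2 ratios of the synthesis list ranged from 0.46 with Gpt2 leading to 0.75 with Nupr1 leading. Ddit3 varied more, from 9.82 CPM in the 23 cells led by Gpt2 to 49.8 CPM in the 50 led by Trib3. The lower value rests on only 3 UMIs (2.03 to 28.7 CPM) and the upper on 37 (35.1 to 68.6 CPM). The 80 cells with 1 or 2 score genes detected, of lower depth (median 10015 UMIs), had 182 CPM of Asns, against 219 CPM in the 253 cells with 4 or 5. Their median for the synthesis list was 0.69 and for the cytoplasmic synthetases 0.18, against 0.61 and 0.41.

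After thinning to 5000 UMIs, Asns was seen in 60% of high-score cells (55.3 to 64.6), 35.3% of intermediate and 29.4% of score-0 cells (84.5%, 72.3% and 57.8% before thinning). Ddit3 was seen in 11.8% (8.95 to 15.2) against 2.38% of score-0 cells after thinning, and in 29.1% against 6.92% before. No cell type that should lack these genes was separated in the library, so these shares have no background beside them. A thinned high-score cell showed a median of 2074 genes and a score-0 cell 2102.

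The hypoxia response list, which shares no gene with the score, had a median log2 ratio of 0.60, with 7 of 13 genes at least 1.5-fold higher. Adm, the vasodilator peptide adrenomedullin, stood at 48.2 against 15.2 CPM (3.17-fold, 2.78 to 3.6). In glycolysis, with a median of 0.36, Pgk1 was 1.58-fold (1216 against 768 CPM) and Pfkp 1.54-fold higher. By line, the glycolysis median was 0.36 with 2 genes past 1.5-fold in WT-annotated cells, and 0.062 with none in KO-annotated cells. When cells were ranked by the summed hypoxia list, the highest 5% of all cells held 98 of the 470 high-score cells (20.9%) and 112 score-0 cells (3.36%). With that group left out of both classes, 372 high-score and 3225 score-0 cells remained. In these the hypoxia median was 0.32, lower in part because cells high in the list itself were removed, and Adm stood at 25.02 against 12.8 CPM (1.95-fold, 1.62 to 2.34). The medians were 0.57 for the regulators, 0.55 for amino acid synthesis, 0.46 for transporters and 0.34 for cytoplasmic synthetases. Asns stood at 204 against 72.5 CPM (2.81-fold, 2.63 to 3.00). Within WT-annotated cells of this kind, 150 high-score and 872 score-0, the median for amino acid synthesis was 0.53 and for the regulators 0.53. Their hypoxia median was 0.35, with Adm at 1.75-fold (1.38 to 2.19). Within KO-annotated cells, 118 high-score and 1234 score-0, amino acid synthesis had a median of 0.58 and the regulators 0.63. Their hypoxia median was -0.039, with Adm at 0.826-fold (0.416 to 1.49).

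Because both lines shared the library, each cell was assigned to a line from the expression of 8 genes that separate them, namely the Y-linked Ddx3y, Eif2s3y, Kdm5d and Uty, with Ipp, BC023719, Dera and Slc25a13. tdTomato, left out of the assignment, had a UMI in 10.3% of the 3168 cells annotated as WT and in 0.906% of the 3420 annotated as KO, while 2812 cells were not called. Cnot8 itself stood at 48.6 CPM in WT-annotated and 64.0 CPM in KO-annotated cells, but 3′ reads lie outside the targeted exon and check nothing. Genotype, sex chromosomes and line cannot be told apart, since the Y-linked genes separate the cells the same way as tdTomato. How many lines of each genotype were mixed is not given in the sources used here.

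The high-score cells leaned to the WT line. They were 6.69% (5.85 to 7.62) of the WT-annotated cells, 212 in number, and 3.48% (2.89 to 4.15) of the KO-annotated cells, 119 in number. KO-annotated cells made up 36.0% (30.8 to 41.4) of the called high-score cells, 50.5% of the intermediate and 57.1% (55.0 to 59.2) of the score-0 cells. Without the cells in the highest 5% by the hypoxia list, the first share was 44.0%. By line, the 5 score genes summed to 117 CPM in WT-annotated and 89.8 CPM in KO-annotated cells, with Chac1 at 18.6 against 8.95 CPM and Gpt2 at 21.3 against 20.6 CPM. By tdTomato alone, 5.31% (3.43 to 7.80) of the 452 cells with a tdTomato UMI and 4.98% (4.54 to 5.46) of the others were high-score, and these intervals overlap.

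Within each line the amino acid lists were higher in high-score cells. In WT-annotated cells, 123 genes (1.62%) were at least 1.5-fold higher and 56 (0.739%) lower, and in KO-annotated cells 73 (0.963%) and 118 (1.56%). The median log2 ratios in WT- and KO-annotated cells were 0.54 and 0.62 for the regulators, 0.51 and 0.59 for amino acid synthesis, 0.52 and 0.34 for transporters and 0.31 and 0.41 for cytoplasmic synthetases. Asns was 2.20-fold (2.01 to 2.39) higher in the WT line and 3.44-fold (3.05 to 3.87) in the KO line, and Atf4 2.05-fold and 2.77-fold. Of the 72 genes higher in all cells together, 63 were above 0 in both lines, and 30 were past 1.5-fold in both. The 72 were chosen in a comparison that included these same cells, so the shared direction was partly built in. The matching shares of all genes are not given here.

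The hypoxia list behaved otherwise, with a median of 0.60 and 7 genes past 1.5-fold in WT-annotated cells and a median of -0.046 and none in KO-annotated cells. Adm was at a log2 ratio of 1.41 in the former and -0.20 in the latter. Ero1l was 2.40-fold (2.08 to 2.75) and 1.33-fold (1.03 to 1.69) higher. Of the high-score cells, 62 WT-annotated (29.2%) but 1 KO-annotated (0.840%) stood in the highest 5% by the hypoxia list, which itself held 9.50% of all WT-annotated and 0.292% of all KO-annotated cells. Ddit4, which both responses induce, was 2.76-fold (2.51 to 3.02) higher in WT- and 2.63-fold (2.22 to 3.10) in KO-annotated cells. The difference between the lines was not tested.

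**Figure D4:**
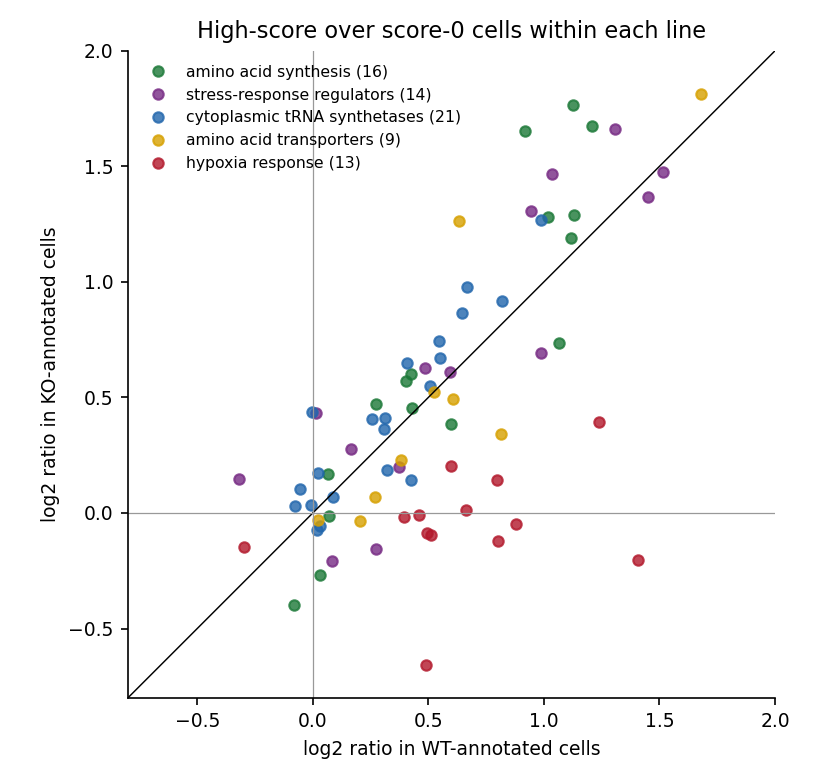
Each dot is a gene of at least 10 CPM, with its log2 ratio of CPM + 1 between high-score and score-0 cells within WT-annotated (x axis) and KO-annotated cells (y axis), and the diagonal marks equal values. The amino acid lists spread along the diagonal at medians of 0.31 to 0.62, and the hypoxia genes, in red, lie below it at medians of 0.60 and -0.046.

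Other properties of the cells moved with the score. Mitochondrial transcripts took a median of 2.78% of UMIs in high-score cells and 3.18% in score-0 cells, and 2.78% against 3.04% within WT-annotated and 2.73% against 3.19% within KO-annotated cells. Ribosomal protein transcripts took 23.9% against 22.4%, and within lines 24.6% against 24.2% and 22.4% against 21.2%. Of the high-score cells, 22 (4.68%) were among the 10% of cells with the highest doublet scores, against 12.9% of intermediate and 5.84% of score-0 cells. The 12 fibroblast markers summed to 21.7 CPM in high-score and 22.0 CPM in score-0 cells, with Col3a1, Postn and Lum at 0 in the high-score cells, and 3 of the 470 high-score and 5 of the 3337 score-0 cells carried 3 or more of them. The 12 primitive endoderm markers summed to 173 against 176 CPM. The 10 markers of mesendoderm summed to 24.2 against 25.8 CPM. The 10 markers of 2-cell-like cells summed to 2.49 CPM (1.47 to 3.93) in high-score, 10.5 in intermediate and 17.1 CPM (16.0 to 18.4) in score-0 cells, with 1, 33 and 18 cells carrying 3 or more of them. The part of these properties in the gene differences was not tested.

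The same rule was applied to the ESC library. It chose 552 of 11054 kept cells down to a score of 3.16, beside 5581 score-0 cells (50.5%), and Nupr1 led there too, with 42.0% of the score genes' UMIs. Chac1 reached 52.4 CPM in those ESCs against 103 CPM in the high-score 48h-EpiLCs. In the ESCs 213 of 7626 genes (2.79%) were at least 1.5-fold higher and 37 (0.485%) lower. Of the 72 higher genes of the 48h-EpiLCs, 36 were also among these 213, which is 50% of the former and 16.9% of the latter. Stage, medium, feeder cells and library cannot be told apart in this comparison, and 41 of the cell barcodes occurred in both libraries, 1 of them a high-score 48h-EpiLC with a kept ESC.

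Values of the same genes stood side by side as follows. Asns was 2.83-fold higher in the high-score 48h-EpiLCs and 2.03-fold (1.90 to 2.17) in ESCs, Mthfd2 2.31-fold and 2.44-fold (2.30 to 2.58), Ddit4 3.07-fold and 3.17-fold (2.87 to 3.48), and Cebpb 2.31-fold and 4.32-fold (3.78 to 4.93). List medians were 0.56 and 0.48 for the regulators, 0.59 and 0.30 for amino acid synthesis, 0.40 and 0.43 for transporters, and 0.37 and 0.34 for cytoplasmic synthetases. The classes differed in their share of the lines, and within lines amino acid synthesis had medians of 0.51 and 0.31 in WT-annotated and of 0.59 and 0.71 in KO-annotated 48h-EpiLCs and ESCs. The WT-annotated ESC value rests on 58 high-score cells, whose contractile median was 2.15 against 0.19 in KO-annotated ESCs. No value by line without cells carrying fibroblast markers is given here. Contractile genes went from a median of -0.35 in the 48h-EpiLCs to 1.00 in the ESCs, and immediate early genes from 0.091 to 0.69. In the ESC library 6.88% of the high-score cells and 1.67% of the score-0 cells carried 3 or more fibroblast markers. Without such cells the ESC medians were 0.17 for contractile genes, 0.41 for immediate early genes and 0.32 for amino acid synthesis, and 115 genes were at least 1.5-fold higher.

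The lean between the lines was opposite in the 2 libraries. In ESCs, 2.25% (1.71 to 2.90) of WT-annotated and 6.07% (5.37 to 6.83) of KO-annotated cells were high-score, and KO-annotated cells made up 81.7% (77.0 to 85.8) of the called high-score cells against 58.9% of the score-0 cells. Without cells carrying fibroblast markers that share was 82.5% (77.9 to 86.5). Among ESCs with a tdTomato UMI, 2.13% (1.07 to 3.78) were high-score, against 5.13% (4.72 to 5.57) of those without. The score genes summed to 60.7 CPM in WT-annotated and 91.3 CPM in KO-annotated ESCs. From ESCs to 48h-EpiLCs their level was thus close in the KO line, at 91.3 and 89.8 CPM, and higher in the WT line, at 60.7 and 117 CPM.

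**Figure D5:**
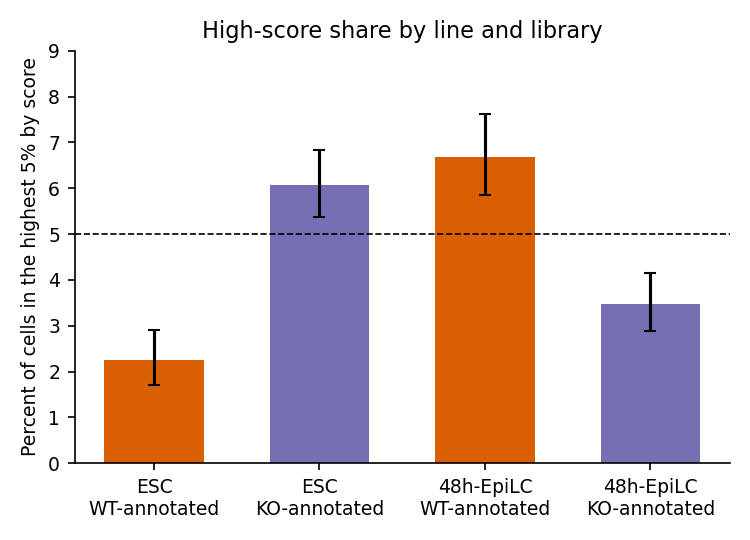
Percent of WT-annotated (orange) and KO-annotated (purple) cells that belong to the highest 5% by score of their library, with exact 95% binomial intervals, which cover counting error only. The dashed line marks 5%. The KO-annotated share is the larger one in ESCs (6.07% against 2.25%) and the smaller one in 48h-EpiLCs (3.48% against 6.69%).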

How the data were processed

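The 2 deposited matrices held UMI counts for each gene in each barcode. The authors had run Cell Ranger 3.0.2 at default settings on mm10 with the tdTomato coding sequence added (the submitters' notes also name Seurat 4). No correction for free RNA is stated. The libraries held 163771168 (48h-EpiLCs) and 144584246 UMIs (ESCs), and kept cells had median depths of 15284 and 11883 UMIs.

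The cells and gene lists were chosen with earlier results of these data known. UMIs were summed per class and scaled to CPM. Folds are CPM ratios with exact conditional binomial intervals, levels carry Poisson and shares Clopper-Pearson intervals, and lists are described by medians of log2(CPM + 1) ratios over genes of at least 10 CPM. Named were the score genes, the members of the 4 amino acid lists, the 2 highest and lowest of other lists, and the 15 highest and 10 lowest genes over 20 CPM with 1 direction in both lines, without mitochondrial genes and line separators. Lines were called by a Poisson mixture (posterior over 0.95), and doublets scored with Scrublet in scanpy 1.11.5 (expected rate 0.1), whose automatic threshold marked 1 cell and had not worked, so that no cell was removed in the main comparison. Where a symbol had 2 identifiers (Ddit3), the one with more UMIs was used. Gene positions are from GENCODE M21 (GRCm38). The procedure was tested on simulated data. Alternatives are given in the closing section.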

Additional observations from a re-analysis of the deposited data

Results flagged for a closer look

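The share of KO-annotated cells among the called high-score cells, minus that among the called score-0 cells, was -21.1 percentage points in the 48h-EpiLCs and 22.8 percentage points in the ESCs, which are opposite directions in the 2 libraries. In the 48h-EpiLCs, 4 pluripotency-related genes were flagged as going opposite ways in the lines between high-score and score-0 cells. They came from lists of 13 naive, 10 formative and 6 core pluripotency genes. The share of all genes that went opposite ways is not given here, so this count has no background beside it. The log2 ratios in WT- and KO-annotated cells were 0.25 and -0.15 for the DNA methyltransferase Dnmt3a, -0.61 and 0.38 for the germline and naive marker Dppa3, 0.32 and -0.30 for the formative factor Pou3f1, and 0.28 and -0.21 for Sox2. With 1 library per stage, none of these differences was tested.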

How the results depend on the processing

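No paired analysis was possible because each stage was 1 library and no test was made. A list median counted as moved only outside the 95% order-statistic interval over its genes, which is wide for short lists, a count of genes when it changed by over 1.5 times, and a gene outside its counting interval. By these limits, 150 summary values over 21 alternatives stayed, 23 moved and 3 turned direction, and of the values of 164 named genes 2960 stayed, 482 moved and 2 turned direction: Adm, at -0.20 on the log2 scale in KO-annotated cells, and Platr31, at 0.47 when cells were chosen on one part of the UMIs and measured on the other. The 72 higher genes became 124 with the highest 2% as high-score cells, 44 with the highest 10%, 296 without the filter on low genes, 22 at 50 CPM or more and 123 in WT-annotated cells. The 21 lower genes became 117 and 8 with the highest 2% and 10%, 290 without the filter, 0 at 50 CPM or more, 56 in WT- and 118 in KO-annotated cells, 33 without the cells of high doublet scores, 40 on split UMIs, 79 after thinning to 5000 UMIs before scoring, and 9 with score-0 cells weighted to the line calls of the high-score cells, an alternative chosen after seeing the data. Another such alternative, without the highest 5% by the hypoxia list in either class, gave 43 higher and 13 lower genes and a KO-annotated share of 44.0%. List medians that stayed within their limits still changed by over 1.5 times: the regulators' 0.56 was 1.17 without the filter, 0.91 at 50 CPM or more, 0.23 on split UMIs and 0.34 after thinning, the transporters' 0.40 was 0.25 at 50 CPM or more and 0.22 after thinning, and the ER median was 0.097 in WT-annotated cells. The ER median of 0.21 was 0.32 with the highest 2% and 0.30 in KO-annotated cells. The ratio of median UMIs, 1.06, became 0.994 with the highest 2%, 0.957 against all other cells and 0.990 on split UMIs, and was 1.003 with score-0 cells weighted by depth and 1.23 in KO-annotated cells. The KO-annotated share of 36.0% was 26.0% when lines were called from Y-linked UMIs alone. The cause of these changes was not tested. Genes below 10 CPM rest on few UMIs, and 1 library per stage gives no replicate error.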
